A study of Mus musculus with 8 samples.

Results

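Bone morphogenetic proteins (BMPs) are secreted ligands that bind a pair of type I and type II serine/threonine kinase receptors. The type I receptor phosphorylates SMAD1 and SMAD5, which enter the nucleus with SMAD4 and switch on target genes, among them the inhibitors of DNA binding Id1, Id2 and Id3. ID proteins lack a DNA-binding region and hold basic helix-loop-helix factors away from DNA. In the ovary, BMPs from somatic cells and from oocytes act on granulosa cells. The genes described here are 10 members of this pathway, taken by symbol from the deposited table, and 9 of the 10 have a row among its 11783 genes. They comprise the ligands Bmp2 and Bmp4, the type I receptor Bmpr1a, the type II receptor Bmpr2, the signal carriers Smad1 and Smad5, and the targets Id1, Id2 and Id3. The type I receptor gene Bmpr1b has no row in that filtered table and was not analysed here.

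Expression was measured by RNA-seq of granulosa cells, the somatic cells that surround the oocyte, dissociated from ovaries of C57BL/6 mice. There are 4 libraries from postnatal day 4 (PND4) and 4 from postnatal day 1 (PND1), with no treatment or engineered allele named for any library. The labels do not tie a library to an animal, litter or pool, so p-values describe the spread among these libraries, which may be technical. Values are FPKM, fragment counts scaled by transcript length and library depth, so levels of different genes can be compared per length, while the number of reads behind them is unknown.

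The granulosa markers Foxl2 and Kitl were above 10 FPKM in all 8 libraries. Of 14 granulosa markers 11 have a row, and their summed FPKM ran from 961.0 to 1210.2 at PND4 and from 948.5 to 1255.5 at PND1. Foxl2 had 26.2, 13.3, 15.3 and 15.4 FPKM at PND4 and 10.5, 19.3, 15.6 and 18.0 FPKM at PND1, in replicate order. Of 12 endothelial markers 1, Esam, has a row, and the endothelial genes Pecam1 and Cdh5 have none. Of 10 immune markers 5 have a row, without the leukocyte gene Ptprc, and their summed FPKM ran from 3.11 to 57.1 at PND4, highest in replicate 1, and from 10.002 to 28.3 at PND1. Summed FPKM of 12 listed oocyte markers ran from 22.4 to 221.1 at PND4, highest in replicate 3, and from 18.0 to 67.0 at PND1. That of 10 listed stroma markers ran from 200.7 to 262.0 at PND4 and from 183.2 to 205.4 at PND1. The sum of 3 listed erythroid markers, all hemoglobin genes, did not overlap between the ages, at 0.268 to 11.4 at PND4 and 17.1 to 48.9 at PND1. The stroma marker Dcn did not overlap either, at 30.3 to 45.4 FPKM at PND4 and 16.4 to 26.2 FPKM at PND1. The sum of 4 listed perivascular and smooth muscle markers ran from 680 to 1316 at PND4 and from 846 to 1537 at PND1. It was above the granulosa sum in PND4 replicate 1 (1316 against 961) and in PND1 replicate 2 (1537 against 949), and below it in the other libraries. The sum of 7 listed surface epithelium markers ran from 211 to 475 at PND4 and from 122 to 379 at PND1. For 2 listed steroidogenic markers it was 2.33 to 6.26 at PND4 and 4.71 to 12.6 at PND1. The part of these cell types in the results was not tested. The libraries numbered 1 listed the most genes at exactly 0 within their age, 1097 at PND4 and 1234 at PND1, against 531 to 642 in the other PND4 libraries and 222 to 858 in the other PND1 libraries.

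Transcripts for the core BMP pathway were detected at both ages, and for 0 of the 9 listed genes was the difference between PND4 and PND1 larger than the spread between libraries by the test used. The comparison used limma on log2(FPKM + 1), with p-values adjusted by the Benjamini-Hochberg method over all 10756 genes that passed a filter on low values. All 9 genes passed that filter, and each exceeded 1 FPKM in every library. The adjusted test called 0 of the 9 (threshold 0.05), where 0.00930% of all tested genes were called. An unadjusted p under 0.05 was had by 0 of the 9, against 5.90% of all tested genes. In 0 of the 9 did the PND4 and PND1 libraries fail to overlap, against 4.24% of all tested genes. On the log2 scale the PND4 mean was above the PND1 mean for 3 of the 9 and below it for 6. Without PND4 replicate 1 the split was 6 above and 3 below. With all 8 libraries, 60.3% of all tested genes were above. The median log2 difference was -0.071 over the 9 and 0.078 over all tested genes. Scaled by median of ratios, the libraries gave -0.148 for the 9 and 0.0085 for all tested genes, and scaled by upper quartile -0.154 for the 9 and 0.0027 for all tested genes.

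**Figure D1:**
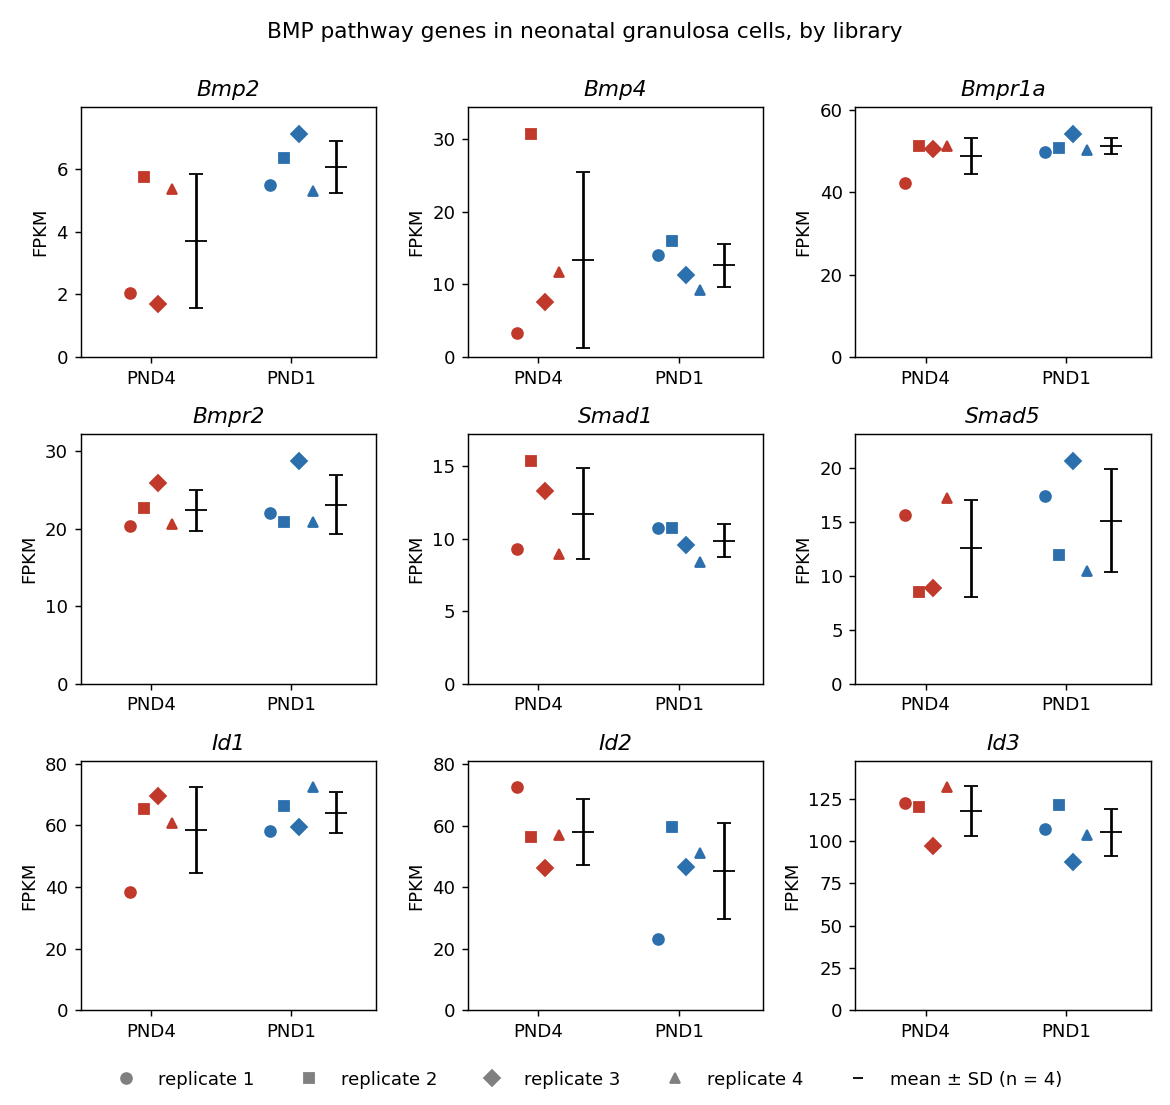
FPKM of the 9 listed BMP pathway genes in each library (points, one symbol per replicate number), with PND4 in red left of PND1 in blue and the mean ± SD of 4 libraries in black; each panel has its own axis from 0. In every panel the points of the ages overlap, and Bmp4 at PND4 spreads from 3.37 to 30.8 FPKM.

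The order of the levels was led by the targets. Averaged over the 8 libraries, Id3 stood at 111.5 FPKM, Id1 at 61.3, Id2 at 51.6, Bmpr1a at 50.00, Bmpr2 at 22.8, Smad5 at 13.8, Bmp4 at 13.0, Smad1 at 10.8 and Bmp2 at 4.90 FPKM. Id3 exceeded every other listed member in all 8 libraries. Id1, Id2 and Bmpr1a changed places from library to library, as did Smad5, Bmp4 and Smad1, so these neighbours are not separated beyond their spread. Within a library Id3 ranked between percentiles 95.03 and 96.69 of all 11783 genes, and Bmp2 between percentiles 13.0 and 44.5. Bmpr1a lay above Bmpr2 throughout, while Bmp4 passed Bmpr2 in PND4 replicate 2.

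Bmp2, a ligand gene, had 2.06, 5.76, 1.69 and 5.36 FPKM in PND4 replicates 1 to 4, against 5.49, 6.36, 7.13 and 5.31 FPKM in PND1 replicates 1 to 4. The PND4 libraries fell into a low pair (replicates 1 and 3) and a pair inside the PND1 range (replicates 2 and 4). The means were 3.72 ± 2.14 FPKM at PND4 and 6.07 ± 0.843 FPKM at PND1 (SD, n = 4 each). Bmp2 had the largest difference of the 9 genes and did not pass (log2 difference -0.70, 95% interval -1.496 to 0.099, limma unadjusted p = 0.0802, adjusted p = 0.805). Without PND4 replicate 3, one of the low libraries, the log2 difference was -0.47. In bulk RNA, fewer cells that make a transcript and less of it per cell cannot be told apart.

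Bmp4, the other ligand gene, had 3.37, 30.8, 7.61 and 11.8 FPKM at PND4, against 14.0, 16.0, 11.3 and 9.20 FPKM at PND1. PND4 replicates 1 and 2 held the lowest and the highest of the 8 values. At PND4 the highest library was 9.14 times the lowest, and at PND1 1.74 times. The mean was 13.4 ± 12.1 FPKM at PND4 and 12.6 ± 2.98 FPKM at PND1 (SD, n = 4 each), while the log2 difference was negative (-0.27, 95% interval -1.34 to 0.81, limma adjusted p = 0.937). That difference was -0.77 without PND4 replicate 2 and 0.18 without PND4 replicate 1, so its sign rested on single libraries. The scatter of Bmp4 within the ages (residual SD on the log2 scale) was at percentile 90.1 of all tested genes. Bmp4 exceeded Bmp2 in all 8 libraries, by 1.64 to 5.34 times at PND4 and 1.58 to 2.56 times at PND1. The stroma marker sum ran higher at PND4 with overlapping ranges (200.7 to 262.0 FPKM, against 183.2 to 205.4 FPKM at PND1), and its part in the ligand values was not tested.

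The receptor transcripts scattered least among the 9 within the ages, although Bmpr2 and Id3 were nearly level (percentiles 11.9 and 12.3 of all tested genes). Bmpr1a, which encodes a type I receptor, had 42.2, 51.2, 50.5 and 51.3 FPKM at PND4, against 49.8, 50.7, 54.1 and 50.1 FPKM at PND1. PND4 replicate 1 was the lowest of the 8, and the other 7 lay between 49.8 and 54.1 FPKM. The log2 difference was -0.071 with a 95% interval of -0.33 to 0.19, which on this scale is a ratio of PND4 over PND1 between 0.794 and 1.14 (limma adjusted p = 0.932). Its scatter within the ages was at percentile 1.65 of all tested genes, the lowest among the 9. Bmpr2, for the type II receptor that pairs with it, had 20.3, 22.6, 25.9 and 20.6 FPKM at PND4, against 22.0, 20.8, 28.8 and 20.8 FPKM at PND1. Replicate 3 was the highest library at each age. The log2 difference was -0.040 (95% interval -0.41 to 0.33, limma adjusted p = 0.973), and it was 0.065 without PND1 replicate 3 and 0.0017 without PND4 replicate 1. Bmpr1a exceeded Bmpr2 in every library, by 1.95 to 2.49 times at PND4 and 1.88 to 2.43 times at PND1.

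Smad1 and Smad5 encode the SMADs that BMP receptors phosphorylate. Smad1 had 9.26, 15.4, 13.3 and 8.98 FPKM at PND4, against 10.7, 10.7, 9.56 and 8.38 FPKM at PND1. Smad5 had 15.6, 8.48, 8.91 and 17.2 FPKM at PND4, against 17.4, 11.9, 20.7 and 10.5 FPKM at PND1. At PND4 the libraries with high Smad1, replicates 2 and 3, were those with low Smad5. The ratio of Smad5 to Smad1 was 1.68, 0.551, 0.672 and 1.92 in PND4 replicates 1 to 4 and 1.62, 1.11, 2.16 and 1.25 in PND1 replicates 1 to 4. Their sum ranged from 22.2 to 26.2 FPKM at PND4 and from 18.8 to 30.2 FPKM at PND1. Neither gene passed, with a log2 difference of 0.20 for Smad1 (95% interval -0.30 to 0.70, limma adjusted p = 0.884). For Smad5 it was -0.26 (95% interval -0.90 to 0.37, limma adjusted p = 0.883). With 1 library left out the difference ran from 0.070 to 0.31 for Smad1 and from -0.43 to -0.11 for Smad5. The pair are related in sequence, and the handling of reads that match both is not stated in the sources.

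**Figure D2:**
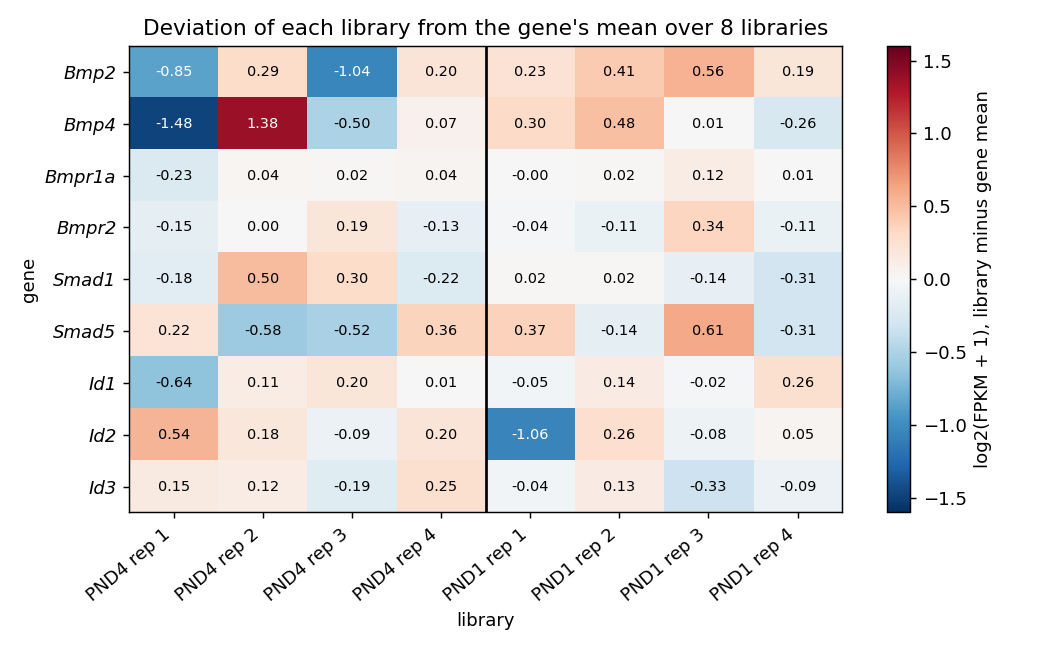
Deviation of each library (columns, PND4 left of PND1) from a gene's mean over the 8 libraries, in log2(FPKM + 1), for the 9 listed genes (rows). Bmp4 deviates most, by -1.48 in PND4 replicate 1 and 1.38 in PND4 replicate 2, while Bmpr1a stays between -0.23 and 0.12.

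The ID genes are direct targets of phosphorylated SMAD1 and SMAD5, and none of their differences between the ages passed the test. With all 8 libraries the log2 difference was negative for Id1 and positive for Id2 and Id3. Without PND4 replicate 1 all were positive (Id1 0.027, Id2 0.305, Id3 0.142). Id1 had 38.4, 65.4, 69.5 and 60.7 FPKM at PND4, against 58.3, 66.4, 59.4 and 72.4 FPKM at PND1. One library, PND4 replicate 1, was below all the others, and the rest overlapped. The log2 difference of -0.16 (95% interval -0.56 to 0.24, limma adjusted p = 0.886) was 0.027 without that library. Id2 had 72.4, 56.3, 46.4 and 57.0 FPKM at PND4, against 23.2, 59.6, 46.7 and 51.2 FPKM at PND1. PND4 replicate 1 was the highest and PND1 replicate 1 the lowest. Id2 had the largest positive difference of the 9 (log2 difference 0.42, 95% interval -0.15 to 0.99, limma unadjusted p = 0.137, adjusted p = 0.810), and 0.13 without PND1 replicate 1. Id3 had 122.5, 120.3, 96.9 and 131.8 FPKM at PND4, against 107.2, 121.5, 87.9 and 103.9 FPKM at PND1. Replicate 3 was the lowest Id3 library at each age, and the log2 difference was 0.16 (95% interval -0.13 to 0.46, limma adjusted p = 0.852).

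The summed level of the 3 ID genes was 234 ± 15.6 FPKM at PND4 and 214 ± 27.6 FPKM at PND1 (SD, n = 4 each), ranges that overlapped (213 to 249 FPKM at PND4 and 189 to 247 FPKM at PND1). Id3 made up 45.6% to 52.8% of that sum at PND4 and 45.3% to 56.8% at PND1. The make-up differed most in the libraries numbered 1. In PND4 replicate 1 Id1 held 16.5% and Id2 31.0%, whereas in PND1 replicate 1 Id1 held 30.9% and Id2 12.3%. In the other 6 libraries Id1 held 24.3% to 32.6% and Id2 21.8% to 24.1%.

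The promoter sequence of Id2 is shown because Id2 is a target of the pathway and its RefSeq upstream window holds GGCGCC, the palindrome at the core of known BMP response elements. RefSeq (GRCm38.p6) gave windows for 8 of the 10 genes, and Id1 and Bmp2 were not matched. In the 250 bases before each start, GGCGCC, which reads the same on each strand, was found for 4 of the 8, namely Id2, Bmpr2, Bmpr1a and 1 of 3 starts of Smad5. It was not found for Id3, Smad1, Bmp4 or Bmpr1b. Of all 32817 such windows 9.59% hold it. That share counts windows, while the 4 of 8 counts genes, with 3 windows each for Smad5 and Bmpr1b. The stretch printed is chr12:25096254-25096342 on the minus strand, bases -250 to -162 from the RefSeq start at 25096092, and lies in an intron of the longest annotated Id2 transcript. It is written 5′ to 3′ with GGCGCC in capitals.
Id2 upstream: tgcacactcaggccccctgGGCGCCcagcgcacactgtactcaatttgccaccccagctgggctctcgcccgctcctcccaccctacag
A second motif, GTCT (AGAC on the other strand), was also searched. Its only match in the Id2 window is at -23, outside the printed stretch, and 82.9% of all 32817 windows hold it. A match is a description of letters and not of a bound site.

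In GRCm38 (GENCODE M21), Bmp2 lies on chromosome 2 from 133552159 to 133562885 and Bmp4 on chromosome 14 from 46383520 to 46390669. Bmpr1a lies on chromosome 14 from 34410734 to 34503341 and Bmpr2 on chromosome 1 from 59763400 to 59879014. Smad1 spans 79338395 to 79399518 on chromosome 8 and Smad5 56703010 to 56742377 on chromosome 13. The ID genes are short and lie apart, Id1 on chromosome 2 from 152736251 to 152737410, Id2 on chromosome 12 from 25093799 to 25097140 and Id3 on chromosome 4 from 136143497 to 136145755. The opposite-strand genes Gm17110 and Gm15217 share 290 exonic bases with Bmpr1a and 89 with Bmp4, and the sources do not state whether strand was used in counting. The same-strand gene Gm27301 shares 100 exonic bases with Smad5, an overlap that strand does not separate.

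Around these genes, 76 others of the BMP pathway were listed by role, of which 43 have a row and 41 were tested. The adjusted test called 0 of the 41 in either direction. On the log2 scale the PND4 mean was above the PND1 mean for 23 and below it for 18, with a median difference of 0.024, and the split was 18 above and 23 below with median-of-ratios or upper-quartile scaling. Without rescaling, 60.3% of all tested genes were above. An unadjusted p under 0.05 was had by 1 of the 41 (limma), where 5.90% of all tested genes had one. That gene was Smurf2, a ubiquitin ligase that targets SMADs and receptors. Smurf2 had 21.6, 19.5, 23.6 and 21.5 FPKM at PND4, against 12.6, 16.9, 17.4 and 16.4 FPKM at PND1. Each PND4 library was above each PND1 library (log2 difference 0.43, 95% interval 0.061 to 0.80, limma unadjusted p = 0.0263, adjusted p = 0.805). The unadjusted limma p of Smurf2 was 0.0501 with median-of-ratios scaling, and it was above 0.05 when any of 3 single libraries was left out, PND4 replicate 3 (0.0681), PND4 replicate 4 (0.0513) or PND1 replicate 1 (0.0581). Bambi, a decoy receptor without a kinase domain, was the other tested gene of the 41 whose ages did not overlap, and was named after its values were seen. Bambi had 2.55, 6.81, 5.53 and 6.64 FPKM at PND4, against 9.13, 7.35, 8.40 and 7.62 FPKM at PND1. Every PND4 library lay below every PND1 library, but the difference did not pass (log2 difference -0.58, and -0.32 without PND4 replicate 1; limma unadjusted p = 0.0775, adjusted p = 0.805). Libraries that did not overlap were found in 3.16% of all tested genes with higher and 1.08% with lower values at PND4.

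Among the other ligands 3 of 14 have a row, and none of the 3 was called (limma unadjusted p from 0.0726 to 0.989). Bmp6, a ligand related to BMP7, stood at 7.496 ± 2.62 FPKM at PND4 and 6.39 ± 1.10 FPKM at PND1 (SD, n = 4 each). Gdf9, an oocyte ligand, had 16.4 FPKM in PND4 replicate 3, the library with the highest oocyte marker sum, and between 0.489 and 5.38 FPKM in the other 7. The part of oocyte RNA in these values was not tested. Gdf6, a ligand of the same superfamily, averaged 1.30 FPKM at each age. Of 10 other receptors and coreceptors 7 have a row and 5 were tested. The type II receptor gene Acvr2a stood at 7.79 ± 0.708 FPKM at PND4 and 7.72 ± 1.43 FPKM at PND1, the coreceptor gene Rgmb at 5.53 ± 1.22 FPKM at PND4 and 6.89 ± 2.60 FPKM at PND1, and the endoglin gene Eng at 7.25 ± 3.73 FPKM at PND4 and 3.58 ± 0.922 FPKM at PND1 (SD, n = 4 each). Eng did not pass (log2 difference 0.77, limma unadjusted p = 0.0512, adjusted p = 0.805), and its values at PND4 overlapped those at PND1.

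Among the other SMADs, the shared partner Smad4 stood at 28.4 ± 4.86 FPKM at PND4 and 27.3 ± 2.86 FPKM at PND1 (SD, n = 4 each). The inhibitory SMADs, which are also targets of the pathway, had 21.4 ± 4.63 FPKM at PND4 and 19.9 ± 3.31 FPKM at PND1 for Smad6, and 9.94 ± 5.59 FPKM at PND4 and 6.64 ± 1.70 FPKM at PND1 for Smad7. Of the 4 genes tested in this list 0 passed. Smad6 exceeded Smad1 in all 8 libraries. Of the 5 tested targets outside the ID genes 1 had a positive and 4 a negative log2 difference, and 0 passed. That split was 3 and 2 without PND4 replicate 1, and 60.3% of all tested genes had a positive difference in the main test. The transcription factor gene Klf10 stood at 16.1 ± 10.3 FPKM at PND4 and 16.7 ± 3.79 FPKM at PND1, and Hes1 at 16.2 ± 7.39 FPKM at PND4 and 16.0 ± 2.34 FPKM at PND1. The log2 difference of Hes1 was negative (-0.11), although its mean FPKM was slightly higher at PND4. Zeb2, for a zinc-finger repressor, stood at 5.40 ± 1.58 FPKM at PND4 and 4.76 ± 1.44 FPKM at PND1.

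The secreted antagonists and modulators had 5 positive and 5 negative log2 differences among the 10 tested (4 and 6 under each of the 3 other scalings), with a median of -0.095, and 0 passed. The most abundant were Fstl1, a follistatin-like glycoprotein gene, at 100.8 ± 12.9 FPKM at PND4 and 116.0 ± 22.0 FPKM at PND1, and the secreted protease gene Htra1, at 116.0 ± 4.28 FPKM at PND4 and 97.3 ± 19.5 FPKM at PND1. Twsg1, a BMP-binding protein gene, stood at 58.1 ± 7.74 FPKM at PND4 and 57.8 ± 2.95 FPKM at PND1 (SD, n = 4 each). Inside the cell and at the membrane, 7 of 11 inhibitors had a positive and 4 a negative log2 difference (6 and 5 with median-of-ratios or upper-quartile scaling), and 0 passed. Without rescaling, 60.3% of all tested genes had a positive difference. Fkbp1a, whose product binds type I receptors and holds them inactive, stood at 52.8 ± 5.62 FPKM at PND4 and 58.6 ± 10.9 FPKM at PND1. The phosphatase gene Ctdsp1 stood at 29.2 ± 8.72 FPKM at PND4 and 28.2 ± 6.95 FPKM at PND1, and the antiproliferative gene Tob1 at 24.6 ± 3.49 FPKM at PND4 and 23.1 ± 6.23 FPKM at PND1. The basic helix-loop-helix partners of ID proteins were also present. Tcf3 stood at 35.6 ± 4.47 FPKM at PND4 and 35.2 ± 4.44 FPKM at PND1, Tcf12 at 17.1 ± 3.29 FPKM at PND4 and 19.6 ± 3.18 FPKM at PND1, and Tcf4 at 3.36 ± 0.861 FPKM at PND4 and 2.84 ± 0.652 FPKM at PND1.

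**Figure D3:**
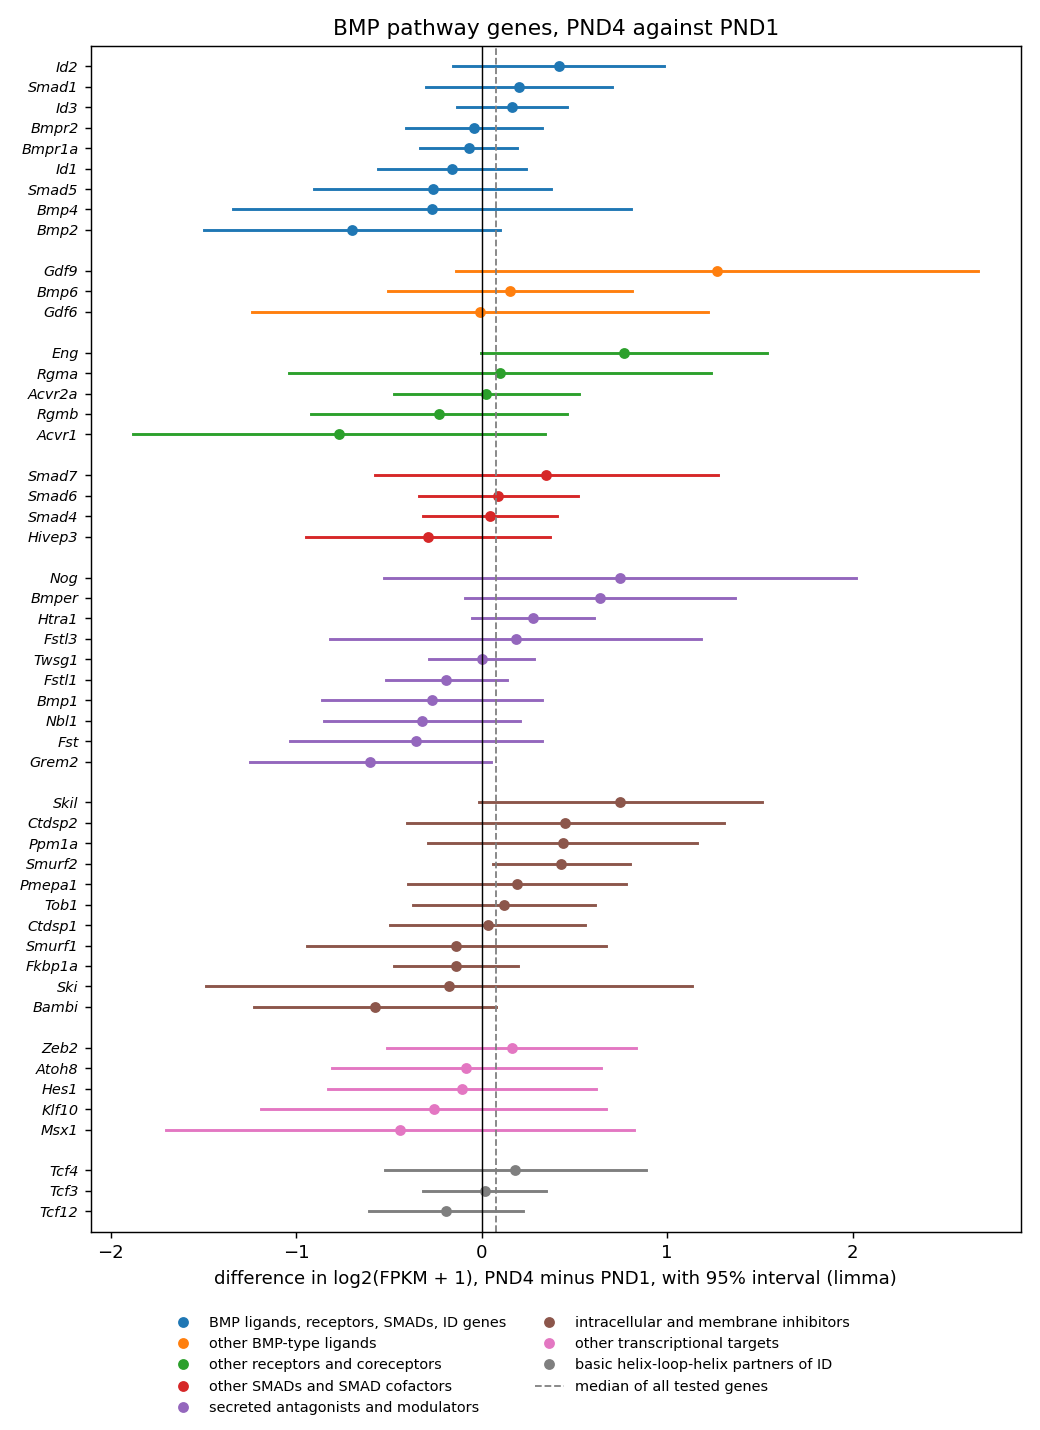
Difference in log2(FPKM + 1), PND4 minus PND1, with its 95% interval from limma, for the 9 listed BMP genes (top) and 41 other tested pathway genes by role; the dashed line is the median of all tested genes. Only the interval of Smurf2 (0.061 to 0.80) lies clear of 0 among the genes drawn.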

How the data were processed

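RNA was extracted with a kit for small samples and sequenced on standard Illumina libraries, per the labels' protocols. Trim Galore and HISAT2, with the build GRCm38, are named per the submitters' processing notes. The authors deposited FPKM per library, with their sum per gene as a further signal column, per the file headers. The quantifier, annotation, strand setting and row filter are not stated in the sources. A second table, deposited by the authors, holds per gene a ratio (PND1 over PND4), the log2 of that ratio, a p-value and a q-value from an unnamed test.

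The test took genes at or above 1 FPKM in 4 or more of 8 libraries (10756 of 11783) and ran on log2(FPKM + 1), which understates changes of low genes, with limma 3.58.1 in R 4.3.3 (mean-dependent prior variance, no block), as PND4 minus PND1, with Benjamini-Hochberg adjustment. Low values of single-transcript genes were searched for multiples of 1 read. At most 35.7% lay within 0.1 of a multiple at the best step in any library, so whole reads were not recovered. The fit was tested on simulated data whose shifts were larger than any difference of the listed BMP genes. That test therefore cannot show whether changes of their size would be called. Members and lists were chosen with earlier results of these data known. All members were named, with the 3 most abundant genes of each other list and any with an unadjusted p under 0.05; Bambi was added after its values were seen. Alternatives covered scaling, filter, pseudocount, variance estimate, replicate block and left-out libraries. Leaving out both libraries numbered 1 was chosen after seeing the data. Figures were drawn with matplotlib 3.10.9.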

Additional observations from a re-analysis of the deposited data

Results flagged for a closer look

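The members, the other pathway genes named by rule and Bambi gave 64 groups of 4 libraries, 1 per gene and age. In 4 of them the gap from 1 library to the nearest other, divided by the range of the group, was above Dixon's 95% critical value, which chance passes in about 1 of 20 groups. Bmpr1a was low in PND4 replicate 1, at 42.2 FPKM. Bmpr2 and Smad4 were high in PND1 replicate 3, at 28.8 and 31.5 FPKM. Tob1 was low in PND1 replicate 2, at 13.8 FPKM.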

How the results depend on the processing

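With limma, 0 of the 9 listed BMP genes and 0 of the other tested pathway genes were called under every alternative run. An unadjusted limma p under 0.05 (a fit across all genes, not an exact test) was had by Bmp2 with median-of-ratios scaling (p = 0.0472), with upper-quartile scaling (p = 0.0494) and without PND4 replicate 2 (p = 0.0365) or 4 (p = 0.0464), and by 0 of the 9 in the other settings. The stricter filter, a mean of 5 FPKM, left Bmp2 untested. Each of the 9 kept the sign of its difference wherever it was tested under the scaling, filter, pseudocount, variance and block alternatives. With 1 library left out, Bmp4 ran from -0.77 to 0.18, Bmpr2 from -0.11 to 0.065 and Id1 from -0.25 to 0.027, and the median of the 9 from -0.11 to 0.027. The others kept their sign, Bmp2 from -0.91 to -0.47, Bmpr1a from -0.095 to -0.0041, Smad1 from 0.070 to 0.31, Smad5 from -0.43 to -0.11, Id2 from 0.13 to 0.57 and Id3 from 0.082 to 0.25. With upper-quartile scaling Bmpr1a stood at -0.154, Smad1 at 0.125 and Id3 at 0.080. Without both libraries numbered 1 Bmp4 stood at 0.24 and Id2 at 0.021, and the cause was not tested. Among all tested genes 1 was called, 0 to 1 with 1 library left out, and 0 without both libraries numbered 1. Deviations of same-numbered libraries from their age means correlated across genes at 0.046, -0.0088, 0.032 and 0.124 for replicates 1 to 4. Libraries with different numbers ran from -0.142 to 0.113, so the replicate 4 pair was the highest. The labels name no pairs, and the numbers were not read as pairs. With the replicate block 0 of the 9 and 1 gene overall were called, Bmp2 stood at -0.70 (limma adjusted p = 0.750), and the number of other pathway genes with an unadjusted p under 0.05 was 5, against 1 without the block. Depth is unknown, and the intervals of the 9 reached 0.26 to 1.07 to either side.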

Other observations

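Pearson correlation of log2(FPKM + 1) was used, a description with 8 points that share their libraries. Predicted loci (Gm or Rik names) and pseudogenes were left out of the tested genes searched. The genes named are those whose profile over the 8 libraries was most like that of a member. For Bmp2 they were Cnppd1 (r = 0.976) and Otud6b (r = 0.962), for Bmp4 Plekhh3 (r = 0.929) and Aggf1 (r = 0.926), and for Id1 Abcd3 (r = 0.975) and Dpysl2 (r = 0.969). For Id2 they were Ddx55 (r = 0.989) and Cenpn (r = 0.987), and for Id3 Syngr1 (r = 0.947) and Mrps18a (r = 0.924). Ddx55 was a low gene, at 0.136 to 2.38 FPKM over the 8 libraries. Otud6b had 7.05, 31.3, 9.50 and 27.8 FPKM at PND4 and 26.5 to 34.4 FPKM at PND1, with the same low PND4 libraries as Bmp2, replicates 1 and 3. Cenpn was low in PND1 replicate 1, at 3.34 FPKM, as Id2 was.

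In the authors' deposited table, which codes PND1 over PND4, Bmp2 has a fold of 1.72 (p = 0.0915, q = 0.742) and Id2 a fold of 0.770 (p = 0.339, q = 0.803). Bambi has 1.61 (p = 0.0399, q = 0.742) and Smurf2 0.762 (p = 0.0182, q = 0.742) in the authors' deposited table, and 0 genes in it have a q under 0.05.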
